A study of Mus musculus with 9 samples.

Results

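The mitochondrial genome of the mouse carries 37 genes, and all 37 were rows of the deposited table of 53607 rows, found by symbols that begin with mt-. They are 13 protein genes, 2 ribosomal RNAs (rRNAs) and 22 transfer RNAs (tRNAs). RNA was sequenced from mouse skeletal stem cells (mSSC, progenitors of cartilage and bone) taken from the callus of the broken femur of C57BL/6J mice aged 2, 12 or 24 months. Every group had the same fracture and was sampled on day 10, each age has 3 libraries, and the comparisons ask how these cells differ with age during repair. Between 500 and 1000 cells per sample were sorted as ITGAV+ and as negative for CD105, 6C3, THY1, TIE2, TER119 and CD45. The labels do not say whether samples of an age were separate animals or pools, so a p-value covers the spread between libraries and no more, and these may be technical replicates.

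Mitochondria make most of a cell's ATP by passing electrons along complexes I, III and IV and letting protons return through complex V, the ATP synthase. The mitochondrial genome encodes core subunits of these complexes and the rRNAs and tRNAs that translate them, while all other subunits, the mitochondrial ribosomal proteins and the transcription machinery come from the nucleus. Both strands are transcribed as long precursors that are cut at the tRNAs, so that most protein genes share a precursor, and mt-Nd6 with a minority of the tRNAs comes from the other strand. Cartilage cells are known for high glycolysis in poorly oxygenated tissue, and mitochondrial activity is a common readout of ageing.

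Marker genes were checked against the sort. Itgav, which encodes the marker the cells were gated to have, lay between 25.2 and 50.1 TPM (a relative abundance corrected for transcript length) in the 9 libraries. Ptprc, the gene of CD45, reached at most 0.281 TPM and Tek, the gene of TIE2, at most 0.301 TPM. The other gated genes were low but not at 0, with Thy1 up to 4.27, Eng (CD105) up to 4.08 and Enpep (6C3) up to 1.63 TPM. Red cell markers, mostly globins, summed to 151 to 338 TPM at 2 months, 221 to 926 at 12 months and 73.3 to 966 at 24 months. Neutrophil markers summed to 20.9 to 47.8, 52.6 to 100.3 and 20.5 to 243 TPM in the same order, with Ly6g at 0.180 TPM or less. The 8 chondrocyte markers, of which 0 were called in each comparison and Col2a1 held the most, summed to 54820 to 61729 TPM at 2 months, 28197 to 38465 at 12 months and 24279 to 43313 at 24 months. Skeletal muscle markers, from a mitochondria-rich tissue, summed to 26.0 to 33.7, 33.7 to 39.3 and 52.8 to 82.0 TPM at 2, 12 and 24 months, and 5 of 10 were kept for testing. Smooth muscle and pericyte markers summed to 177 to 290, 151 to 480 and 490 to 1107 TPM in the same order, and 1 of 8 was called for 24 against 2 months. Library 1 of the 24 month group stood apart, with 33313 rows at 0 against 29284 to 31082 in the others and the lowest mean correlation with the other libraries (0.932 against 0.953 to 0.962). The part of these differences in the mitochondrial values was not tested. Because the values are shares of the RNA of sorted cells in bulk, fewer cells of a type and less RNA per cell cannot be told apart.

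The order of genes along the molecule matters for reading the values, because neighbours share bases. On build GRCm38, with the GENCODE M21 annotation, mt-Atp8 (chrM:7766-7969) and mt-Atp6 (chrM:7927-8607) overlap by 43 bases, mt-Nd4l (chrM:9877-10173) and mt-Nd4 (chrM:10167-11544) by 7, and mt-Nd5 (chrM:11742-13565) and mt-Nd6 (chrM:13552-14070) by 14. The first 2 pairs lie on the plus strand and are read in shifted frames, and mt-Nd6 is the only protein gene on the minus strand. The overlaps follow with 20 bases on each side, all read on the plus strand, and capitals mark the shared bases.
mt-Atp8/mt-Atp6, chrM:7907-7989: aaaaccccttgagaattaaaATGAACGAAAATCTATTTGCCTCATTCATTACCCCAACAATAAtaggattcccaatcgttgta
mt-Nd4l/mt-Nd4, chrM:10147-10193: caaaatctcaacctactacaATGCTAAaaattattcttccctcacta
mt-Nd5/mt-Nd6, chrM:13532-13585: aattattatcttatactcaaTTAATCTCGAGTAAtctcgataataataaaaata
In the first 2, the capitals open with the ATG start of the downstream gene and close with the TAA stop of the upstream gene. In the last, they close with the TAA stop of mt-Nd5 and open with TTA, the complement of the mt-Nd6 stop codon. A read that falls inside such a stretch belongs to either gene, and no source used here gives the strand setting of the counting, so reads of mt-Nd5 and mt-Nd6 in their overlap cannot be told apart.

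Each of the 3 genes mt-Co3, mt-Nd4 and mt-Cytb has a length that leaves a remainder of 1 base after whole codons and ends on a single T. Most mitochondrial mRNAs are polyadenylated, and in genes such as these 3 the added A bases are known to complete the stop codon. The ends are shown because they mark these mRNAs as dependent on the tail for translation to stop, and the capital is the last base of the gene on the plus strand.
mt-Co3, chrM:9372-9390: atttattgatgaggatctT
mt-Nd4, chrM:11526-11544: attacaggcctgacaataT
mt-Cytb, chrM:15270-15288: atactaaaattatatccaT

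The 13 protein genes summed to 8582, 9790 and 9842 TPM in the libraries of 2 months, 8636, 7500 and 8441 TPM in those of 12 months and 8144, 10649 and 11149 TPM in those of 24 months. This is between 0.750% and 1.11% of the TPM total, and all 37 genes together took 1.14% to 1.46%. The lowest value at 24 months belonged to library 1, and the sums of the 3 ages overlapped. The log2 ratio of the sums was 0.08 for 24 against 2 months, -0.20 for 12 against 2 months and 0.27 for 24 against 12 months, where the spread of the log2 sums between libraries of an age was 0.17 (SD pooled over the ages). Dropping library 1, 2 and 3 of 24 months singly put the ratio of 24 against 2 months at 0.22, 0.02 and -0.01, and dropping library 1 of 2 months put it at 0.01. With quantile normalization it was -0.01. Median-of-ratios scaling gave -0.11 for 12 against 2 months, and the ratio of 24 against 12 months was 0.41 without library 1 of 24 months.

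No mitochondrial gene was called in any comparison. The call was a Benjamini-Hochberg adjusted p under 0.05 in limma over the 14501 rows with at least 1 TPM in at least 3 libraries, which kept all 13 protein genes, both rRNAs and 16 of 22 tRNAs. For 24 against 2 months 0 of these 31 were called, where 0.159% of all tested rows were, and 2 had an unadjusted p under 0.05. For 12 against 2 months 0 of 31 were called, where 0.724% of all rows were, and 9 had an unadjusted p under 0.05. For 24 against 12 months 0 of 31 were called, where 0.455% of all rows were, and 7 had an unadjusted p under 0.05. Shares of all rows with an unadjusted p under 0.05 were 14.5%, 15.6% and 14.1% in the 3 comparisons. The call was not the same without each library: mt-Tq was called for 12 against 2 months without library 1 of 24 months (limma, adjusted p = 0.0368), and mt-Ta and mt-Tt for 24 against 12 months without library 3 of 24 months (limma, adjusted p = 0.0335 and 0.0263). Those 2 fits called 244 of 14227 and 346 of 14265 rows, against 105 and 66 of 14501 with all libraries.

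**Figure D1:**
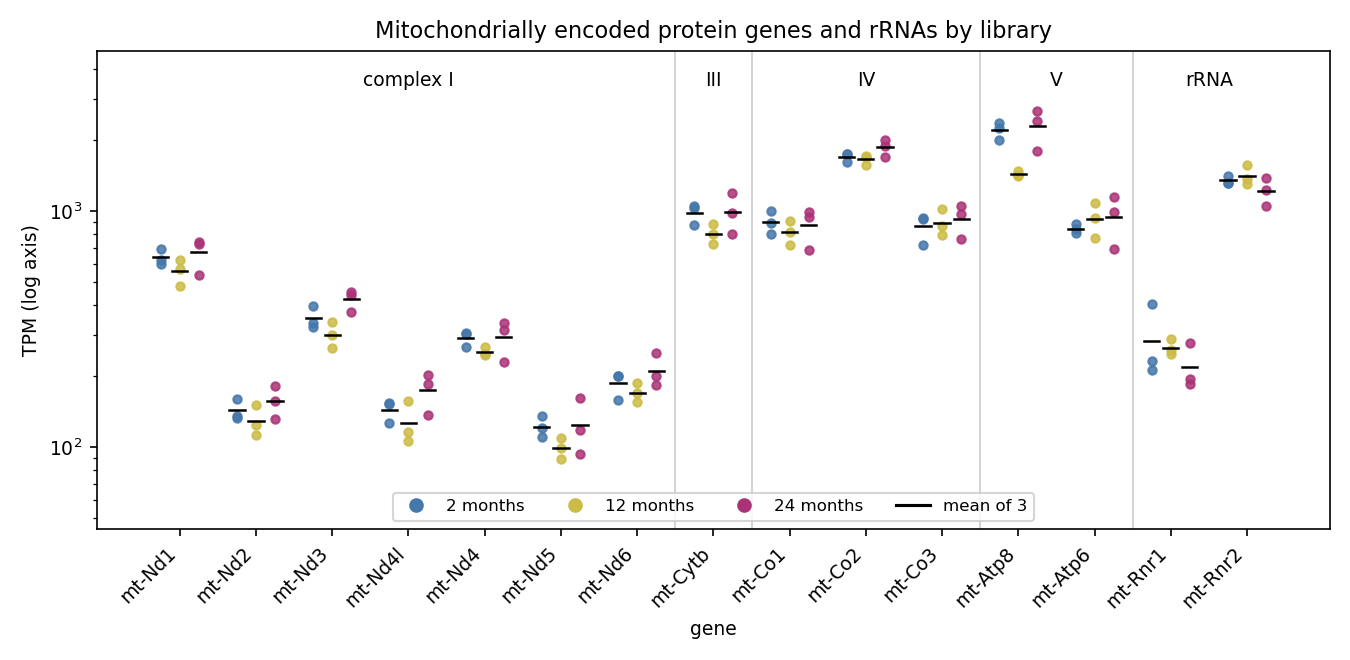
TPM of the 13 protein genes, in order of complex, and the 2 rRNAs in each library (points, coloured by age, log axis), with the mean of 3 libraries as a bar. Within most genes the ages overlap, and for mt-Atp8 the 3 points of 12 months (1416 to 1486 TPM) lie below all others (1801 to 2674 TPM).

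The levels of the 13 mRNAs differed more between genes than between ages. By mean over the 9 libraries, in TPM and thus per length, mt-Atp8 stood highest at 1987, followed by mt-Co2 at 1747. Next came mt-Cytb at 929, mt-Atp6 at 909, mt-Co3 at 896 and mt-Co1 at 865 TPM, whose ranges over the libraries overlapped. Then followed mt-Nd1 at 622, mt-Nd3 at 359 and mt-Nd4 at 280.0 TPM. The lowest were mt-Nd6 at 189.7, mt-Nd4l at 149, mt-Nd2 at 143 and mt-Nd5 at 116 TPM. The 7 complex I genes held the 7 lowest places, and no value of a complex I gene in any library (highest 744 TPM, mt-Nd1) exceeded the means of the other 6 genes. Because Salmon spreads reads between the genes and nuclear copies described further on, the places of mt-Co1, mt-Co3 and mt-Atp6 are those of the deposited rows only.

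Complex I, the NADH dehydrogenase that feeds electrons into the chain, has 7 subunits encoded here. Mt-Nd1, which lies at the junction of the membrane arm with the quinone site, had 598, 621 and 696 TPM at 2 months, 569, 484 and 622 TPM at 12 months and 536, 744 and 731 TPM at 24 months. Mt-Nd2, a membrane-arm subunit that resembles proton antiporters, had 136, 134 and 161 TPM at 2 months, 151, 112 and 124 TPM at 12 months and 131, 157 and 182 TPM at 24 months. In both genes all 3 ages overlapped.

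Mt-Nd3, a small subunit near the quinone site, had 324, 398 and 337 TPM at 2 months, 340.0, 299 and 263 TPM at 12 months and 376, 442 and 457 TPM at 24 months. All 3 values of 24 months lay above all 3 of 12 months, and the ages 24 and 2 months overlapped at 376 and 398 TPM. The log2 fold change of 24 against 12 months was 0.50 (SE 0.15, 95% confidence interval 0.17 to 0.83), with an adjusted p of 0.178 in limma. Mt-Nd4l, another small membrane subunit, had 138, 203 and 186 TPM at 24 months and 157, 106 and 116 TPM at 12 months, where 138 and 157 TPM overlap. The log2 difference was 0.47 (SE 0.19, limma adjusted p = 0.289), and against 2 months (127, 152 and 155 TPM) it was 0.27 (SE 0.19, limma adjusted p = 0.543).

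Mt-Nd4 and mt-Nd5 are the large antiporter-like subunits of the membrane arm. At 12 months mt-Nd4 had 267, 246 and 249 TPM, against 267, 303 and 306 TPM at 2 months, and the 2 ages lay apart by less than 1 TPM. Mt-Nd5 had 109, 89.5 and 99.05 TPM at 12 months and 110.2, 121 and 136 TPM at 2 months, again without overlap by a narrow margin. Their log2 fold changes for 12 against 2 months were -0.20 (SE 0.16) and -0.30 (SE 0.19), with limma adjusted p-values of 0.578 and 0.481. At 24 months mt-Nd4 had 229, 316 and 337 TPM and mt-Nd5 93.8, 119 and 162 TPM. The range of mt-Nd4 at 24 months took in all values of both younger ages, and that of mt-Nd5 all but the lowest of 12 months.

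Mt-Nd6, a membrane-arm subunit, is the only mRNA of the minus strand, and its composition mirrors that: 28.1% of its bases are G and 5.97% are C, against 5.88% to 16.1% G and 22.1% to 30.0% C in the 12 other protein genes. It had 159, 200.3 and 201 TPM at 2 months, 187, 155 and 169 TPM at 12 months and 184, 200.1 and 252 TPM at 24 months, and all 3 ages overlapped. Its log2 fold change was 0.17 (interval -0.18 to 0.53) for 24 against 2 months, -0.13 (-0.48 to 0.22) for 12 against 2 months and 0.30 (-0.05 to 0.66) for 24 against 12 months, with limma adjusted p-values of 0.643, 0.749 and 0.423. To see whether the gene of the other strand kept step with the rest, its log2(TPM + 1) was set against the mean of the 12 other mRNAs in each library. The difference was -1.57, -1.42 and -1.45 at 2 months, -1.41, -1.42 and -1.45 at 12 months and -1.29, -1.57 and -1.32 at 24 months. The ages overlapped, and the means of 24 and 2 months differed by 0.09, those of 12 and 2 months by 0.06 and those of 24 and 12 months by 0.03, beside an SD of 0.10 between libraries of an age. Single libraries of 24 months moved these: without library 2 the difference was 0.18 for 24 against 2 months and 0.12 for 24 against 12 months, both above that SD, and without libraries 1 and 3 in turn it was 0.04 and 0.05 for 24 against 2 months and -0.02 and -0.01 for 24 against 12 months. For 12 against 2 months it was 0.01 without library 1 of 2 months, 0.09 without library 2 and 0.12 with quantile normalization. Against its overlapping neighbour mt-Nd5, mt-Nd6 was higher in each of the 9 libraries, by 0.53 to 0.96 on the log2(TPM + 1) scale.

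Complex III has a single subunit from this genome, mt-Cytb, the cytochrome b that holds the haem groups of the Q cycle. It had 874, 1038 and 1052 TPM at 2 months, 804, 729.9 and 882 TPM at 12 months and 802, 988 and 1195 TPM at 24 months. All ages overlapped. The log2 fold changes were -0.00 for 24 against 2 months, -0.29 (SE 0.17) for 12 against 2 months and 0.29 for 24 against 12 months, with limma adjusted p-values of 0.992, 0.422 and 0.467.

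Complex IV, cytochrome c oxidase, passes the electrons to oxygen. Its catalytic subunit mt-Co1, with the haem and copper centre, had 804, 898 and 1001 TPM at 2 months, 819, 719 and 915 TPM at 12 months and 685, 947 and 998 TPM at 24 months. Mt-Co2, which receives electrons from cytochrome c, had 1628, 1751 and 1747 TPM at 2 months, 1708, 1567 and 1711 TPM at 12 months and 1708, 1893 and 2007 TPM at 24 months. The structural subunit mt-Co3 had 724, 929 and 941 TPM at 2 months, 1021, 793 and 865 TPM at 12 months and 765, 1054 and 973 TPM at 24 months. The ages of each gene overlapped, and the 9 fold changes of the 3 genes lay between -0.14 and 0.17 on the log2 scale, with a smallest limma adjusted p of 0.622.

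Complex V has a pair of subunits from this genome: mt-Atp6, the subunit a that forms the proton path, and mt-Atp8, a short membrane protein of its stator. Mt-Atp8 had 2018, 2364 and 2265 TPM at 2 months, 1416, 1428 and 1486 TPM at 12 months and 1801, 2429 and 2674 TPM at 24 months. The values of 12 months were the 3 lowest of the 9 and close to each other. The log2 fold change of 12 against 2 months was -0.62 (SE 0.17, interval -0.98 to -0.25), with an adjusted p of 0.110 in limma, and that of 24 against 12 months was 0.65 (SE 0.17, interval 0.29 to 1.02), with an adjusted p of 0.115. With array quality weights both passed, at limma adjusted p-values of 0.0411 and 0.0263. The weights called 370 and 336 of all 14501 rows in these comparisons, in place of 105 and 66, and no other setting called mt-Atp8. For 24 against 2 months its log2 fold change was 0.04 (interval -0.33 to 0.41).

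Mt-Atp6, which shares its precursor and 43 bases with mt-Atp8, had 813, 881 and 843 TPM at 2 months, 1087, 772 and 939 TPM at 12 months and 694, 1157 and 996 TPM at 24 months. These overlapped, with log2 fold changes of 0.13, 0.13 and 0.01 for 24 against 2, 12 against 2 and 24 against 12 months. The difference of mt-Atp8 and mt-Atp6 in log2(TPM + 1) was 1.31, 1.42 and 1.42 in the libraries of 2 months, 0.38, 0.89 and 0.66 in those of 12 months and 1.37, 1.07 and 1.42 in those of 24 months. The 12 month libraries lay below all others. These differences rest on the deposited mt-Atp6 row, and most of the TPM of this sequence was listed for the nuclear copy Gm10925, described further on. With that copy added, mt-Atp8 lay below mt-Atp6 in all 9 libraries, at -0.49, -0.38 and -0.41 at 2 months, -0.90, -0.77 and -0.94 at 12 months and -0.39, -0.43 and -0.34 at 24 months. The 12 month libraries were again the lowest, and their mean lay apart from that of 2 months by -0.44 in place of -0.74. Mt-Nd4l and mt-Nd4 also overlap on the plus strand. Their difference, mt-Nd4l minus mt-Nd4, was -1.07, -0.99 and -0.98 at 2 months, -0.76, -1.20 and -1.10 at 12 months and -0.73, -0.64 and -0.85 at 24 months. Here the 24 month libraries lay above those of 2 months, and those of 12 months overlapped both.

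**Figure D2:**
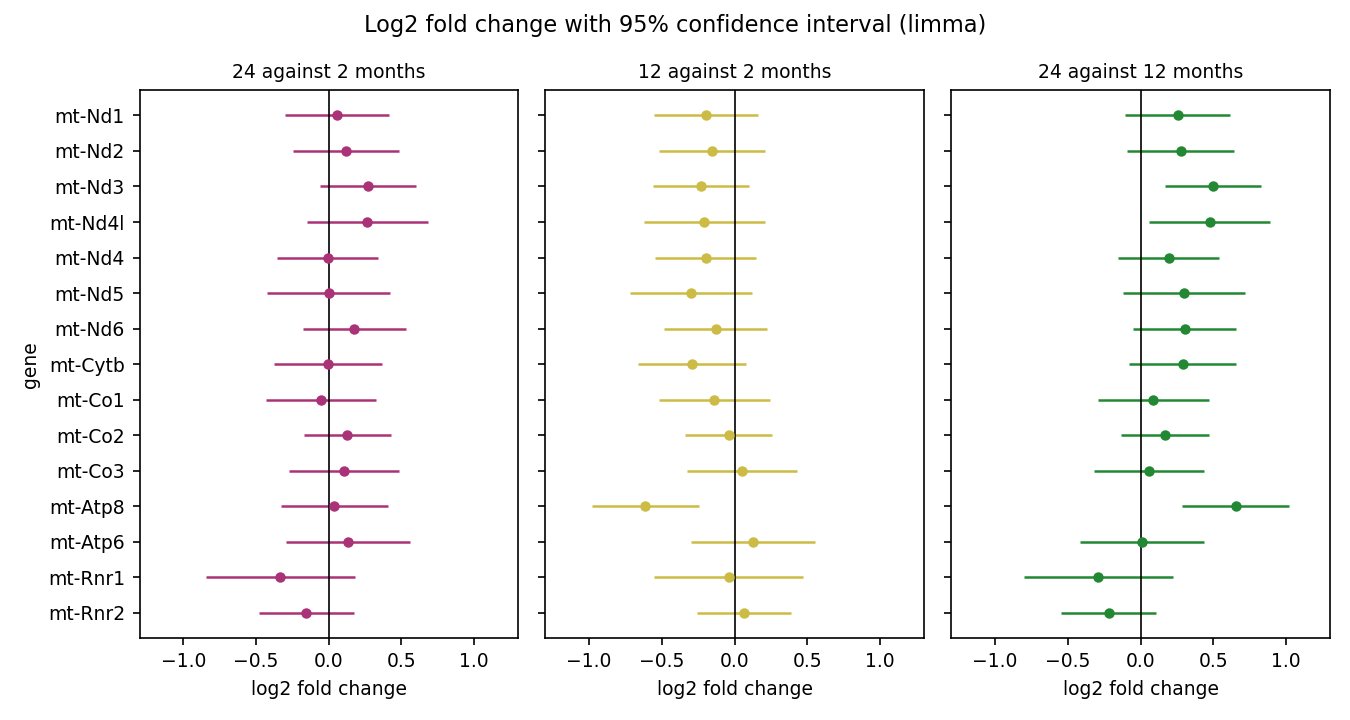
Log2 fold change (points) with 95% confidence interval (bars) from limma for the 13 protein genes and 2 rRNAs, 1 panel for each comparison. The intervals of mt-Atp8 exclude 0 for 12 against 2 and 24 against 12 months, and those of mt-Nd3 and mt-Nd4l exclude 0 for 24 against 12 months, before adjustment over all rows.

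Taken as groups, the protein genes had a median log2 fold change of 0.10 for 24 against 2 months, with 9 of 13 above 0, where the median of all tested rows was -0.02 and 47.9% of rows lay above 0. For 12 against 2 months the median was -0.20, with 2 of 13 above 0 (mt-Atp6 and mt-Co3), where all rows had -0.07 and 42.8%. For 24 against 12 months it was 0.27, with 13 of 13 above 0, where all rows had 0.07 and 57.4%. By complex, the medians for 24 against 2 months were 0.12 for I, -0.00 for III, 0.10 for IV and 0.09 for V. Those for 12 against 2 months were -0.20, -0.29, -0.04 and -0.24 in the same order, and those for 24 against 12 months 0.30, 0.29, 0.09 and 0.33. The counts above 0 moved with the scaling, to 12, 3 and 11 of 13 with median-of-ratios factors and to 7, 0 and 13 of 13 with quantile normalization. With the nuclear copies described further on added, they were 9, 0 and 12 of 13. Single libraries moved them too: for 24 against 2 months the count was 13, 7 and 7 of 13 without library 1, 2 and 3 of 24 months. Dropping library 1, 2 and 3 of 24 months singly put the median for 24 against 2 months at 0.21, 0.01 and 0.01, dropping library 1 of 2 months at 0.01, and quantile normalization at 0.02. That for 12 against 2 months was -0.10 without library 2 of 12 months and -0.11 with median-of-ratios factors, and that for 24 against 12 months was 0.15 without library 3 of 24 months and 0.18 without library 2 of 12 months. The comparisons share libraries, and the medians are descriptions with no test. No protein gene had values at 24 months apart from those at 2 months, where 20.2% of all rows did. At 12 months 3 of 13 lay below 2 months without overlap (mt-Atp8, mt-Nd4 and mt-Nd5), where 15.4% of rows did in that direction. At 24 months 2 of 13 lay above 12 months (mt-Atp8 and mt-Nd3), where 11.1% of rows did.

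Of the rRNAs, mt-Rnr2, the large subunit RNA of the mitochondrial ribosome, had 1324, 1326 and 1410.3 TPM at 2 months, 1577, 1311 and 1369.6 TPM at 12 months and 1235, 1382 and 1054 TPM at 24 months. Mt-Rnr1, the small subunit RNA, had 406, 233 and 212 TPM at 2 months, 288, 248 and 257 TPM at 12 months and 277, 195 and 185 TPM at 24 months. In mt-Rnr1 library 1 was the highest of each age. For 24 against 2 months the log2 fold changes were -0.15 (SE 0.15) and -0.33 (SE 0.23), and for 24 against 12 months -0.22 (SE 0.15) and -0.29 (SE 0.23), with a smallest limma adjusted p of 0.533 over the 3 comparisons. Each ribosome holds a copy of both, yet their difference in log2(TPM + 1) was 1.70 to 2.82. Set against the mean of the 13 mRNAs, the mean of both rRNAs was 0.74, 0.16 and 0.10 at 2 months, 0.54, 0.56 and 0.47 at 12 months and 0.47, -0.08 and -0.41 at 24 months on that scale. The difference of the means was -0.34 for 24 against 2 months, 0.19 for 12 against 2 months and -0.53 for 24 against 12 months, beside an SD of 0.33 between libraries of an age. The highest value of 24 and of 2 months each came from library 1 of that age. Without that library of 24 months the difference of 24 against 2 months was -0.58, without that of 2 months it was -0.13, and without library 3 of 24 months it was -0.14. Dropping library 1, 2 and 3 of 2 months singly put the difference of 12 against 2 months at 0.40, 0.10 and 0.07. That of 24 against 12 months was -0.33 without library 3 of 24 months and -0.77 without library 1.

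**Figure D3:**
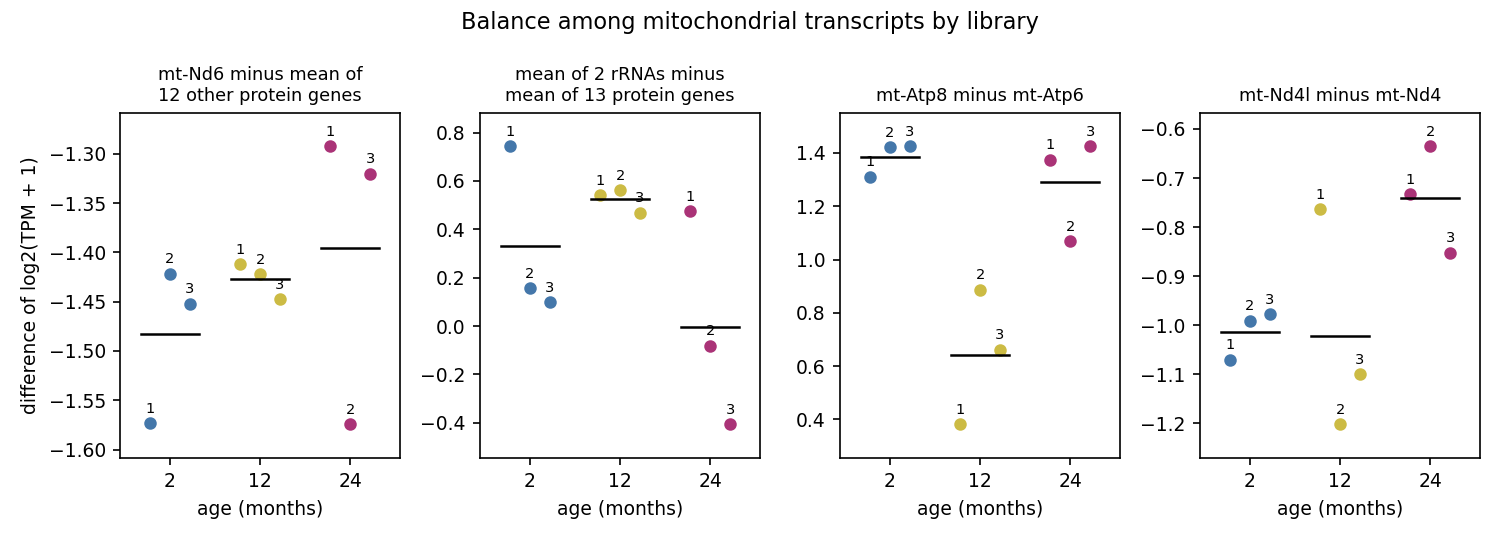
Differences of log2(TPM + 1) within each library, by age, with the library's number beside each point and the mean as a bar: mt-Nd6 against the 12 other protein genes, the rRNAs against the 13 protein genes, mt-Atp8 against mt-Atp6 and mt-Nd4l against mt-Nd4. The mt-Nd6 values span -1.57 to -1.29 with overlapping ages, and the mt-Atp8 values of 12 months (0.38 to 0.89) lie below the other 6 (1.07 to 1.42). The deposited mt-Atp6 row is used, and with its nuclear copy added all 9 mt-Atp8 values are below 0.

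Several of these genes have near-identical copies in the nuclear genome, insertions of mitochondrial DNA, that hold rows of their own in the table and compete for the same reads. Among nuclear copies found by alignment of the annotated transcripts, 7 matched a mitochondrial protein gene at 99.7% identity or more, all on the minus strand of chr1:24611535-24616197. Gm10925 matches all of its 678 bases to mt-Atp6, and Gm28437 all of its 783 bases to mt-Co3. Gm29216 matches the last part of mt-Co1, and over the 483 of its 492 bases that aligned it differs by A1066T. Gm28438 differs from mt-Nd3 by T3C, with positions counted from 1 at the gene's 5′ end. The stretches that tell these genes from their copies are shown 5′ to 3′ of the gene, with the differing base in capitals.
mt-Co1, chrM:6390-6405, plus strand: ggaAttgttttatcca
Gm29216, chr1:24616173-24616188, minus strand: ggaTttgttttatcca
mt-Nd3, chrM:9459-9473, plus strand: atTaacctgtacact
Gm28438, chr1:24613105-24613119, minus strand: atCaacctgtacact

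Of the copies, 3 had higher deposited values than the genes they match. Gm29216 was listed at 2190.3 to 2985 TPM, or 2.78 to 3.59 times mt-Co1, Gm10925 at 1556 to 2401 TPM, or 1.43 to 2.59 times mt-Atp6, and Gm28437 at 1197 to 1858 TPM, or 1.29 to 2.01 times mt-Co3. Gm28661, identical to the first 681 of the 684 bases of mt-Co2, was listed at 0 in 5 libraries and at up to 42.0 TPM in the others. Gm28438 reached 22.5 TPM, and the copies of mt-Nd4 and mt-Nd4l stayed at or under 0.0775 and 0.448 TPM. The other 42 copies, at 69.8% to 97.6% identity, reached at most 2.71 TPM, and 0 of them had 1 TPM in 3 libraries. Together the 7 copies held 5229 to 7117 TPM in a library, and the 13 protein genes and these copies together 1.296% to 1.83% of the total. Reads from an identical stretch carry no information on their origin, so the split between gene and copy is uncertain.

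The sum of gene and copy moves some values. Gm10925 had 1556, 1663 and 1916 TPM at 12 months, against 2028, 2202 and 2180.2 TPM at 2 months, below without overlap, where mt-Atp6 itself overlapped. With the copy added, scaled by length, mt-Atp6 had 2636, 2427 and 2847 TPM at 12 months and 2832, 3073 and 3014 TPM at 2 months, and its log2 fold change was -0.18 in place of 0.13. That of mt-Co3 was -0.13 in place of 0.05, and that of mt-Co1 was -0.00 in place of -0.14. For 24 against 2 months the combined fold changes were 0.00 for mt-Atp6, 0.07 for mt-Co3 and -0.01 for mt-Co1. No copy was called alone and no gene with its copy (limma, smallest adjusted p of these sums 0.171, for mt-Nd3 in 24 against 12 months).

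**Figure D4:**
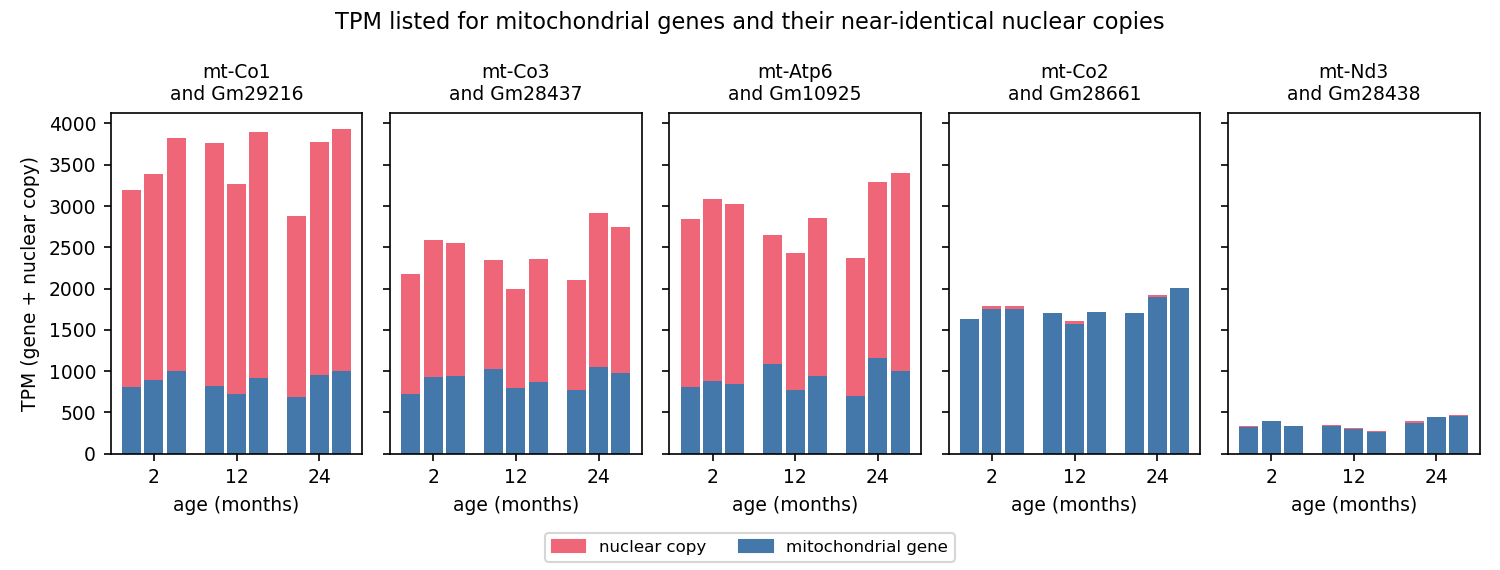
TPM listed for 5 mitochondrial genes (blue) and, stacked on them, their near-identical nuclear copies (red), for each library by age in months. The copies of mt-Co1, mt-Co3 and mt-Atp6 exceed the genes in all 9 libraries, while those of mt-Co2 and mt-Nd3 add at most 42.0 and 22.5 TPM.

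Transfer RNAs bring the amino acids to the ribosome, and in mitochondria they also mark where the precursors are cut. Their rows are short, and low values were coarse. For 5 tRNAs of 69 bases, mt-Ti, mt-Tm, mt-Ta, mt-Te and mt-Ts1, values were set against a step in each library. The step was the smallest value above 0 of these 5, or a fraction of it that made mt-Ta and mt-Te whole multiples. Of 34 values up to 100 steps, 33 lay within 0.05 of a whole multiple, partly by this choice. On it mt-Ti, the isoleucine tRNA, stood at 1, 0 and 1 steps at 2 months, 1, 3 and 2 at 12 months and 3, 4 and 4 at 24 months. Mt-Tv, also of 69 bases, was not among these 5. Its 1.63 TPM in library 1 of 12 months and 4.91 TPM in library 2 of 24 months met steps of 2.22 and 1.68 TPM, and were not whole multiples. The most abundant tRNAs were those of the minus strand. All 8 tRNAs of that strand had a higher mean (15.7 to 2036 TPM) than any of the 14 of the plus strand (at most 5.02 TPM). The minus strand gave 8 of 8 rows to the test and the plus strand 8 of 14. The 6 left out were mt-Tf, mt-Tv, mt-Td, mt-Tr, mt-Th and mt-Ts2, which reached at most 4.91 TPM, and mt-Tr and mt-Ts2 were listed at 0 throughout. The minus strand tRNAs lie opposite the long precursor of the plus strand, and reads of the 2 strands cannot be told apart without the strand setting.

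The highest tRNA row was mt-Ts1, a serine tRNA (chrM:6870-6938, minus strand) whose 3′ end overlaps the end of mt-Co1 on the other strand. It is shown 5′ to 3′ on its own strand, with the 3 bases shared with the mt-Co1 stop codon in capitals.
mt-Ts1: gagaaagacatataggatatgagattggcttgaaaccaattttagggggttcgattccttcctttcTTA
It had 1428, 2219 and 1124 TPM at 2 months, 2901, 1943 and 2767 TPM at 12 months and 2280.2, 2068 and 1597 TPM at 24 months, and all ages overlapped. In each library it exceeded the deposited mt-Co1 row, by 0.17 to 1.82 on the log2(TPM + 1) scale. With the nuclear copy added to mt-Co1 it was lower than mt-Co1 in 3 of the 9 libraries, with differences of -0.76 to 0.72. In human mitochondria the mature COX1 mRNA is known to run on through the antisense of this tRNA, so without the strand setting its value is uncertain.

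For 12 against 2 months the log2 fold changes of the 8 minus strand tRNAs were 0.17 to 1.64. Mt-Tq, the glutamine tRNA, had 78.5, 81.4 and 96.6 TPM at 12 months, against 40.6, 53.7 and 33.1 TPM at 2 months, without overlap. Its log2 fold change was 1.01 (SE 0.23) with an adjusted p of 0.0776 in limma, the smallest of any mitochondrial gene. Mt-Ta, the alanine tRNA, had 29.3, 38.4 and 39.3 TPM at 12 months and 28.4, 23.6 and 16.6 TPM at 2 months, a log2 fold change of 0.64 (SE 0.25, limma adjusted p = 0.236). Mt-Tn, the asparagine tRNA, had 33.3, 18.4 and 24.7 TPM at 12 months and 8.13, 14.8 and 6.62 TPM at 2 months, a log2 fold change of 1.32 (SE 0.42, limma adjusted p = 0.158). Mt-Tc for cysteine, with 30.2, 31.1 and 30.3 TPM at 12 months against 19.5, 4.20 and 8.80 TPM at 2 months, also did not overlap. In mt-Tp (proline), mt-Te (glutamate) and mt-Ty (tyrosine) the 12 and 2 month libraries overlapped. The mean of the 8 in log2(TPM + 1) was 5.45, 5.33 and 5.18 at 2 months, 6.23, 6.10 and 6.30 at 12 months and 5.90, 4.59 and 5.59 at 24 months. The 12 month libraries were the 3 highest of the 9.

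For 24 against 12 months the same 8 had log2 fold changes of -2.29 to -0.02. Mt-Ta had 12.98, 16.8 and 21.96 TPM at 24 months, below all 3 values at 12 months, with a log2 fold change of -1.02 (SE 0.25) and an adjusted p of 0.0952 in limma. Mt-Tc had 13.9, 0 and 17.04 TPM at 24 months, also below those of 12 months, at -2.29 (SE 0.87, limma adjusted p = 0.261). For 24 against 2 months they lay between -0.65 and 0.56, the highest being mt-Tq, with 85.2, 45.9 and 60.1 TPM at 24 months (limma adjusted p = 0.310).

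Among the plus strand tRNAs, mt-Ti had 2.03, 0 and 1.66 TPM at 2 months, 2.22, 4.61 and 4.37 TPM at 12 months and 5.56, 6.72 and 7.99 TPM at 24 months. The values of 24 months lay above all others, and the log2 fold change against 2 months was 1.94 (SE 0.42) with an adjusted p of 0.121 in limma. At these low values it moved with the offset, to 3.23 with 0.1 and 0.93 with 5 in place of 1. Its values of 12 months, at 2.22 TPM or more, also lay just above those of 2 months, and the gene shares 2 bases with mt-Nd1 and 3 with mt-Tq. Mt-Tt for threonine (4.91 to 21.2 TPM at 12 months, 0 to 3.52 at 2 months) and mt-Tw for tryptophan (2.18 to 6.55 TPM at 12 months, 0 to 1.97 at 2 months) also did not overlap between these ages. Mt-Tl1 and mt-Tl2 for leucine, mt-Tm for methionine, mt-Tk for lysine and mt-Tg for glycine stayed at or under 6.55 TPM and overlapped in every comparison. A tRNA of this kind passed the filter once any 3 libraries, of whatever age, reached 1 TPM. Counts over the kept tRNAs carry that choice. Over all 31 kept genes, 10 did not overlap for 12 against 2 months, where 25% of all rows did not. For 24 against 12 months 6 did not, where 17.2% of all rows did not, and for 24 against 2 months 1, where 20.2% did not.

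**Figure D5:**
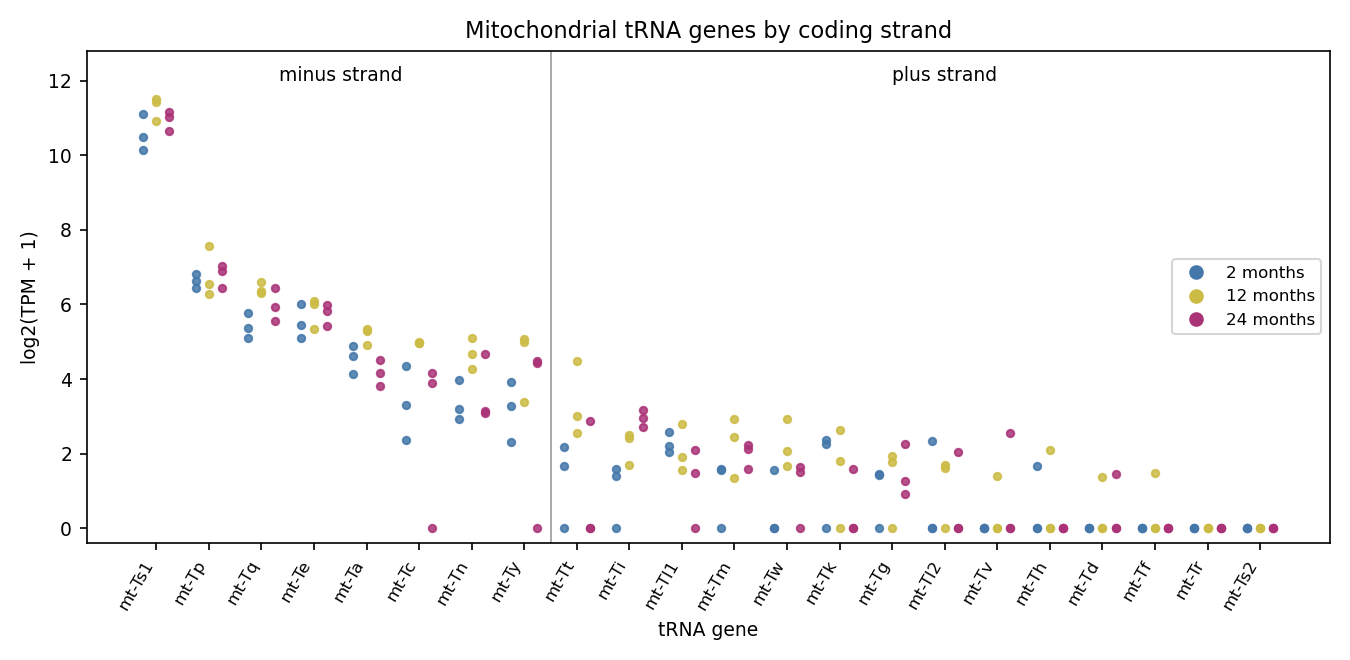
Log2(TPM + 1) of the 22 tRNA genes in each library (points, coloured by age), with the minus strand genes at the left and the plus strand genes at the right, each in order of mean. The minus strand genes have means of 15.7 to 2036 TPM and the plus strand genes at most 5.02 TPM.

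Complexes I, III, IV and V join subunits from both genomes, so the mitochondrial mRNAs were set beside the nuclear ones. Of 80 nuclear subunits of complexes I to V that were kept, 0 were called in each comparison. An unadjusted p under 0.05 was found for 30, all higher, for 24 against 2 months, where 14.5% of all rows had one. For 12 against 2 months 22 were higher and 1 lower, where 15.6% of all rows passed, and for 24 against 12 months 6 were higher and 1 lower, where 14.1% passed. Their median log2 fold changes were 0.32, 0.27 and 0.08 for 24 against 2, 12 against 2 and 24 against 12 months, against 0.10, -0.20 and 0.27 for the 13 mitochondrial genes. For 12 against 2 months, 69 of 80 nuclear subunits had a positive value, and 2 of 13 mitochondrial ones, where 42.8% of all rows did. The mean log2(TPM + 1) of the mitochondrial subunits of complex I minus that of its 37 nuclear ones stood at 0.10 ± 0.21, -0.35 ± 0.32 and -0.10 ± 0.35 for the ages of 2, 12 and 24 months (SD, n = 3). For complex III it was 1.85 ± 0.22, 1.31 ± 0.31 and 1.51 ± 0.41, for complex IV 1.78 ± 0.22, 1.44 ± 0.37 and 1.42 ± 0.29, and for complex V 1.68 ± 0.17, 1.24 ± 0.36 and 1.44 ± 0.38 in the same order. The mean was highest at 2 months in all 4 complexes, and no test was made of these scores, which use the deposited rows without the nuclear copies. The mitochondrial ribosome, which translates the 13 mRNAs with proteins made in the cytosol, had 0 of 78 proteins called, with medians of 0.32, 0.20 and 0.09.

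The machinery that makes and handles mitochondrial RNA had no called gene. Of the 13 lists of nuclear genes examined, 0 members were called in each comparison, with a smallest limma adjusted p of 0.0548 for Bnip3, a mitophagy receptor induced by low oxygen, in 24 against 12 months (log2 fold change -1.50, SE 0.29). The 37 kept genes of mitochondrial transcription and RNA processing had medians of -0.04, -0.13 and 0.04 for 24 against 2, 12 against 2 and 24 against 12 months. Polrmt, the RNA polymerase, had 5.08, 6.32 and 8.001 TPM at 2 months, 2.77, 6.23 and 4.42 TPM at 12 months and 10.3, 8.89 and 6.48 TPM at 24 months, with 0.84 (SE 0.30, limma adjusted p = 0.239) for 24 against 12 months. Lrpprc, which with Slirp keeps the mRNAs stable and polyadenylated, had 1.15, 2.26 and 4.62 TPM at 12 months, against 6.26, 6.83 and 6.34 TPM at 2 months. These did not overlap, at a log2 difference of -1.14 (SE 0.36, limma adjusted p = 0.160). Slirp itself was at 220.4 to 335 TPM with overlapping ages. Polg, the DNA polymerase of mitochondria, had 9.89, 8.16 and 11.9 TPM at 12 months and 14.4, 19.3 and 17.7 TPM at 2 months, with -0.73 (SE 0.22, limma adjusted p = 0.141).

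Of the other genes of this machinery, Tfam, which packs mitochondrial DNA and starts transcription, averaged 11.7 ± 2.29 at 2 months, 14.7 ± 0.524 at 12 months and 12.0 ± 4.18 TPM at 24 months (SD, n = 3). Tfb2m, the partner that opens the promoter, averaged 13.2 ± 5.36 TPM at 24 months and 20.1 ± 2.10 at 2 months, and Grsf1, of the RNA granules, 31.3 ± 8.34 and 46.1 ± 6.43 TPM, with limma adjusted p-values of 0.326 and 0.299. Mterf3, Fastkd5, Pnpt1, Supv3l1 and Twnk, which act in transcription, RNA processing, RNA decay and DNA unwinding, had limma adjusted p-values of 0.521 or more in all 3 comparisons. Nrf1 and Gabpa, nuclear factors that drive genes for mitochondrial proteins, had a smallest limma adjusted p of 0.447. Ppargc1a and Ppargc1b, coactivators of mitochondrial biogenesis, lay at 0 to 1.63 and 0 to 1.57 TPM and were not kept.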

How the data were processed

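Gene expression was deposited as 1 table of log2 values for 53607 rows and 9 libraries. These deposited values are read as log2(TPM + 1): with log and offset 1 undone, each column adds up to 10 to the power 6. Salmon and GRCm38.p6 are named in the submitters' processing notes; no source used here gives the version, the annotation release or the strand setting. TPM holds no depth, and the depth of single libraries is therefore unknown, as is any counting interval. Salmon shares reads among transcripts of the same sequence. Columns name the age only, so libraries 1 to 3 of an age stand in file order and were not paired.

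A row was kept when 3 or more of the 9 libraries listed it at 1 TPM or higher (14501 rows). Age was fitted as a factor of 3 levels with limma 3.58.1 under R 4.3.3, using lmFit, contrasts.fit and trended eBayes on 6 residual degrees of freedom. Tests were two-sided, with Benjamini-Hochberg adjustment over all kept rows and calls at an adjusted p under 0.05. The fit was tested on simulated data. A fold change of log2(TPM + 1) is smaller than the true one for low rows. Positions, lengths and sequences came from GENCODE M21 on GRCm38, and nuclear copies from alignment of its transcripts to the mitochondrial genes. All 37 members were accounted for: protein genes and rRNAs were named with every value, kept tRNAs were named, and from fixed nuclear lists the called members (up to 6 per list and comparison, by smallest p) and 16 set genes were named. The members and lists were chosen with earlier results of these data known. Alternatives changed the offset, the filter, the scaling, the variance model, the weights, the libraries and the threshold. Adding the nuclear copies to their genes, also in differences between genes, was chosen after seeing the data.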

Additional observations from a re-analysis of the deposited data

How the results depend on the processing

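Of 12 alternative settings, 11, 9 and 10 left 0 mitochondrial genes called for 24 against 2, 12 against 2 and 24 against 12 months. Array quality weights called 1 (mt-Ti), 3 (mt-Atp8, mt-Tn and mt-Tq) and 1 (mt-Atp8) in that order, and an adjusted p under 0.10 called 0, 1 (mt-Tq) and 1 (mt-Ta). With the weights, 295, 370 and 336 of all 14501 rows were called, and 39, 405 and 239 at 0.10. A fit of only the 6 libraries compared called mt-Tq for 12 against 2 months (1 gene, limma adjusted p = 0.0271), where 305 of 13622 rows were called. Leaving out each library gave 0 to 0, 0 to 1 and 0 to 2 calls. Over all rows the calls moved from 23, 105 and 66 to between 0 and 295, 8 and 405, and 0 and 336 under these settings, and to between 1 and 438, 17 and 244, and 2 and 346 without a library. Without a library the median log2 fold change of the 13 protein genes was 0.01 to 0.21, -0.24 to -0.10 and 0.15 to 0.40. The SD between libraries of an age was 0.20, and dropping 1 of 3 libraries can hardly move the median past it. These ranges are therefore no check against that SD. The difference of mt-Nd6 from the other 12 was 0.04 to 0.18, 0.01 to 0.09 and -0.02 to 0.12 without a library. Of 780 fold changes of protein genes under alternatives, 776 moved by less than the spread between libraries and kept their side of the threshold. Many could not have moved further. Changing only the filter, the variance model or the libraries of the age not compared leaves a fold change as it was. Dropping 1 of the 3 libraries of an age cannot move it past that spread, so 776 is no measure of stability. Among the 780, 45 changed sign, where the reported size was 0.13 or less. Of 941 such values of tRNAs 34 changed sign, where the reported size was up to 0.65. mt-Ti, mt-Tm, mt-Tw, mt-Tl1 and mt-Tt moved with the offset. The cause of these changes was not tested. Low values of mt-Ti and mt-Tm were a few steps, and mt-Tw, mt-Tl1 and mt-Tt were not checked for steps. The depth of single libraries is unknown. No paired analysis was possible because the columns carry no replicate numbers.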
